A study of Mus musculus with 15 samples.

Results

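Wild-type neural stem and progenitor cells from C57Bl/6 embryos were compared with wild-type cells from mixed FvB/BalbC embryos. The members are the wild-type libraries of the series, 3 of C57Bl/6 (WT_B6, replicates 1, 2 and 4) and 2 of FvB/BalbC (WT_FvB, replicates 1 and 2), which make 5 of the 15 libraries. No gene was selected in advance, and the comparison runs over all named genes. The cells came from the dorsal telencephalon at E12.5 (embryonic day) and grew as floating neurospheres with EGF at 20 ng/ml and FGF at 10 ng/ml, and their RNA was sequenced as 66 bp pairs. The other 10 libraries are 4 labelled as Kat6b knock-out cells on C57Bl/6 (KO_B6) and 6 of FvB/BalbC cells with a Kat6b transgene (Tg_FvB), whose titles read knock-out while their genotype field reads Kat6b Tg. They served here to estimate the spread between libraries and as a second pair of backgrounds that shares no library with the wild types. The promoter of the transgene is not given in the sources used here.

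Neurospheres are clusters of dividing precursors that grow in EGF and FGF and keep the expression of radial glia, the stem cells of the embryonic cortex. Such cultures hold stem cells beside precursors of neurons, astrocytes and oligodendrocytes. Inbred mouse strains also differ at fixed loci, among them the interferon-inducible Ifi200 genes, the major histocompatibility complex and Nnt, a mitochondrial transhydrogenase with a deletion in the C57BL/6J substrain.

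Several facts of the libraries bear on every value below. The wild-type libraries held 18483747 to 31067022 counts over named genes, and the 15 libraries together ranged from 12336303 to 62819028. The 3 WT_B6 libraries carry litter numbers 844, 843 and 929, both WT_FvB libraries carry litter 844, and WT_B6 replicate 1 has the same litter and embryo number (5) as WT_FvB replicate 2. Replicates within each wild-type group were nearly alike: the biological coefficient of variation of a pair was 0.0172 to 0.0358 in WT_B6 and 0.0316 in WT_FvB, against up to 0.173 between KO_B6 and 0.272 between Tg_FvB libraries. They differed by more than counting noise and were kept as separate libraries, but whether they came from separate cultures is not given in the labels. The p-values therefore measure a spread between libraries, and background and culture cannot be told apart. That spread was estimated over all 15 libraries, so it includes the wider spread of the mutant groups. A fit on the 5 wild-type libraries alone called 10350 genes in edgeR's test. When each set of near-identical libraries was summed into 1, leaving 9 libraries, edgeR's test called 0 genes between the wild types, with 3706 at an unadjusted p under 0.05, and DESeq2 called 1192. All 7456 genes called with separate libraries kept their direction in both of these fits. Both fits reuse the same counts, with 1 library per wild-type group, so the kept direction is no further support. All 5 wild-type libraries had high Xist (2370 to 2800 CPM, counts scaled to the same total in each library) and at most 0.0652 CPM of the Y-linked Ddx3y, so sex did not separate the groups; among the other libraries, KO_B6 replicate 4 alone held Ddx3y, at 79.7 CPM.

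The cultures shared most of their expression profile. Of the genes at 1 TPM (a level per gene length, scaled to the same total in each library) or more in every library of a group, 12953 in WT_B6 and 13258 in WT_FvB, 12648 reached this in all 5 libraries, which is 97.6% and 95.4% of each list. Spearman's rho of the group means was 0.961 across 15261 genes, against 0.998 between WT_B6 replicates 1 and 2, and genes are not independent replicates. The lists of the 500 highest genes had 422 in common. A shared level, defined as a 95% interval of the fold change inside 1.5-fold either way, held for 6188 of 15261 tested genes (40.5%). A gene with a shared level can also be called in the test below, when its difference is small but passes.

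**Figure D1:**
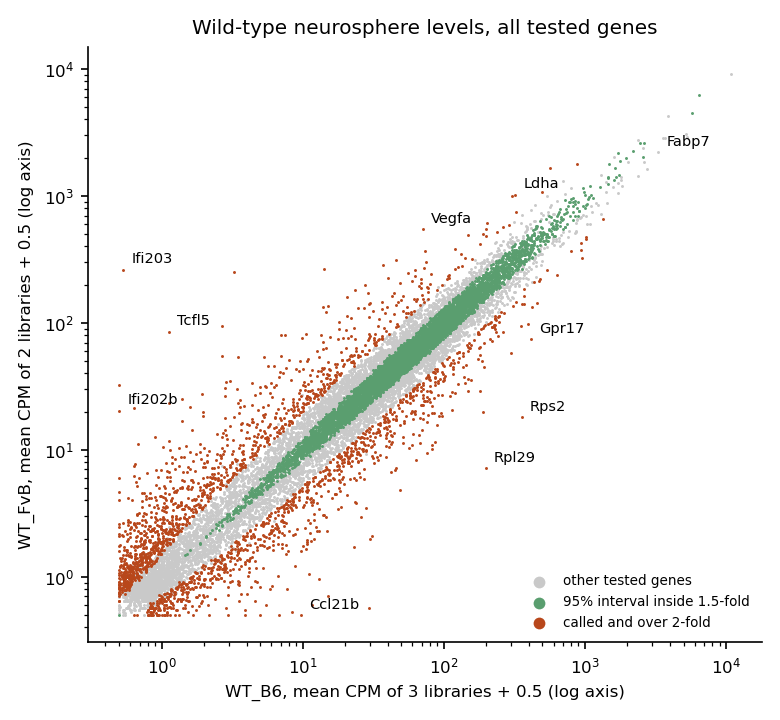
Mean CPM plus 0.5 of each tested gene in WT_B6 (x axis) and WT_FvB (y axis), both on log axes. Green points are the 6188 genes with a shared level, orange points are genes called in edgeR's test and over 2-fold apart; most highly expressed genes lie on the diagonal, while Ifi203 and Tcfl5 lie far above it and Rps2 and Rpl29 far below.

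Fabp7, the fatty acid binding protein of radial glia, was the 6th highest gene in both groups, at 10190 ± 113 TPM (SD, n = 3) in WT_B6 and 7069 ± 80.9 (SD, n = 2) in WT_FvB. Leaving out mitochondrially encoded genes, it led the list of highest genes, followed by Ckb (brain creatine kinase), Eef1a1 (a translation elongation factor), the microRNA entry Mir682, Dbi, Scd2, Cfl1, Gm9794, Atp5b, Apoe, Rplp1, Hsp90ab1, Vim, Actb and Rpl8. Mir682 and Gm9794 are short entries, and their level per length is uncertain because reads of longer or duplicated transcripts can fall on them. Vim, the intermediate filament of radial glia, stood at 2301 ± 27.7 TPM in WT_B6 and 1884 ± 5.49 in WT_FvB. Among the 10 highest genes with a shared level outside the ribosome, Scd2, a fatty acid desaturase, had 2774 ± 43 TPM in WT_B6 and 2817 ± 10 in WT_FvB. The others were Eef1a1, Cfl1, Atp5b, Hsp90ab1, Actb, Slc25a5, Txn1, Eef2 and Fth1.

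The cell-type label was checked against marker genes. The stem-cell genes Nes (324 and 276 TPM in WT_B6 and WT_FvB), Slc1a3 (953 and 1263 TPM), Egfr (194 and 189 TPM), Ptprz1 (764 and 790 TPM) and Olig2 (612 and 592 TPM) all had a shared level. On the log2 scale the 95% interval was -0.47 to -0.12 for Nes and 0.14 to 0.54 for Slc1a3, so Nes was slightly lower and Slc1a3 slightly higher in WT_FvB. Over the whole list of 27 stem and radial glia genes, 14 were called lower in WT_FvB, 3 higher and 10 not called. Among all tested genes 23.5% were called lower and 25.4% higher. A shared level held for 9 of the 27, a count that can include called genes. Olig2 and Olig1, transcription factors of oligodendrocyte and ventral precursors, were far above the cortical factors Pax6 (41.3 and 33.9 TPM) and Emx2 (44.6 and 30.3 TPM). Tubb3, a neuronal tubulin, was at 34.2 TPM in WT_B6 and 7.97 TPM in WT_FvB. In such bulk libraries fewer cells of a type and less RNA per cell cannot be told apart. All 10 microglial markers were under 1 CPM in every wild-type library, with sums of at most 0.456 CPM. All 7 erythroid markers were also under 1 CPM. The 6 neural crest and Schwann cell markers summed to 200 to 204 CPM in WT_B6 and 208 to 213 in WT_FvB; Sox10, which the oligodendrocyte list also holds, had 62.9 to 73.3 and 17 to 17.7 CPM of this, and 4 of the 6, among them Foxd3 with no count, had at most 1.03 CPM. The 8 endothelial markers summed to 1.53 to 1.64 CPM in WT_B6 and 3.64 to 4.15 in WT_FvB, and the 9 mural and fibroblast markers to 8.64 to 9.22 and 22.4 to 22.6 CPM.

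Between the wild types, edgeR's quasi-likelihood test called 7456 of 15261 genes (48.9%) at a Benjamini-Hochberg adjusted p under 0.05. Of these, 3872 (25.4% of tested genes) were higher and 3584 (23.5%) lower in WT_FvB. Calls over 2-fold numbered 1251 higher (8.2%) and 966 lower (6.33%). Because the libraries of a group were so alike, the groups did not overlap for 11954 genes (78.3%), so absence of overlap by itself separates few genes from the rest. The median log2 fold change was 0.02, with a median standard error (SE) of 0.142. Calls were spread over the chromosomes, from 44.7% of tested genes on the X to 53.8% on chromosome 6. With litter as a covariate 3903 genes were called, and leaving out WT_FvB replicate 1 or 2 left 5000 or 4972 of the 7456 called in the same direction.

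Genes counted on one side only gave the sharpest contrast. With at most 3 counts in every library of one wild-type group and at least 1 CPM in every library of the other, 24 genes were counted in WT_FvB only and 18 in WT_B6 only, and 10 and 7 of these had no count at all in the silent group. In the 24 genes of the first kind no KO_B6 library passed 1 CPM. In the 18 genes of the second kind, the median level in the libraries Tg_FvB 1 to 4 was 0.0829% to 1.03% of the WT_B6 mean, and in KO_B6 it was 56.5% to 68.6%. The library labelled Tg_FvB replicate 5 went against its background label, with 58.6% of the WT_B6 level for these genes together with 47.3% of the WT_FvB level for the other set, and replicate 6 had 11.9% and 6.99%. The columns of these libraries are headed as wild-type FvB libraries in the deposited tables, yet they held 140 and 289 CPM of Kat6b, above both WT_FvB libraries. Results on the mutant libraries are therefore also given without replicates 5 and 6.

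**Figure D2:**
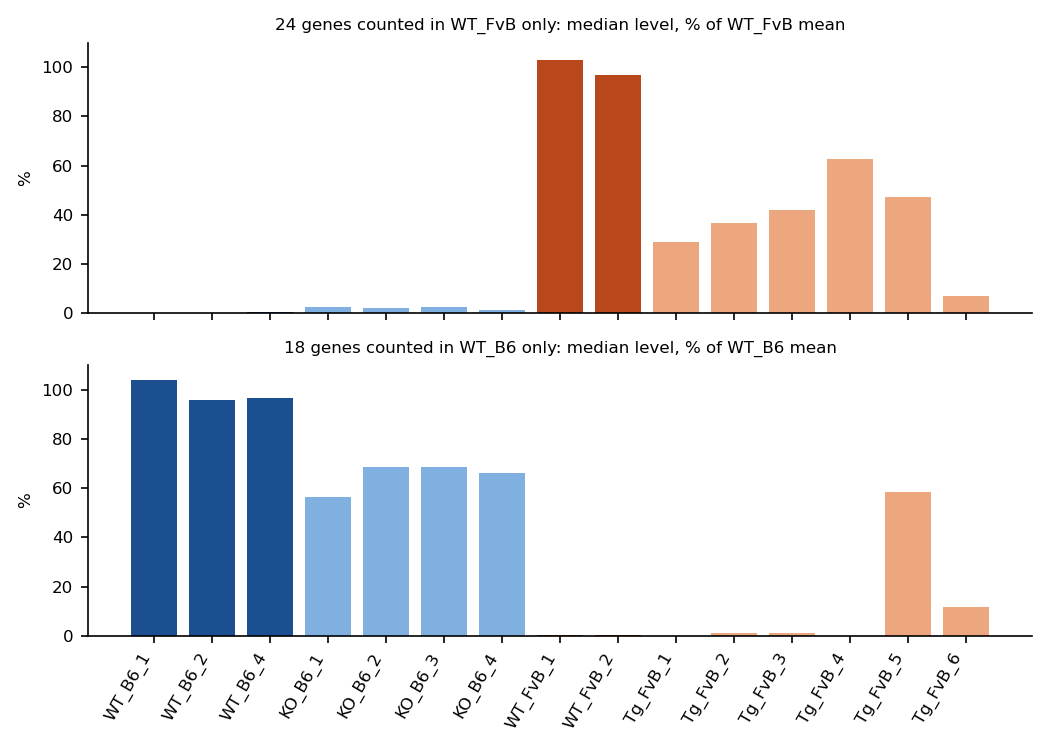
Median level of the 24 genes counted in WT_FvB only (top, percent of the WT_FvB mean) and of the 18 genes counted in WT_B6 only (bottom, percent of the WT_B6 mean) in each of the 15 libraries. The WT_B6-only genes are near 0 in Tg_FvB 1 to 4 and at 58.6% in the library labelled Tg_FvB 5; these sets were chosen on the wild-type libraries, so only the mutant bars carry information.

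The genes counted in WT_FvB only included a block of the Ifi200 family on chromosome 1, which encodes interferon-inducible proteins that bind DNA. On mm10, Ifi209 (chr1:173630859-173647928), Ifi204 (chr1:173747293-173767069), Ifi203-ps, Mndal (chr1:173857215-173880382), Ifi211, Ifi203 (chr1:173920400-173942866) and Ifi202b (chr1:173962569-173982844) lie within 1 stretch. Of the 16 named genes in this window, 7 passed the filter on low counts, and since they are at or near 0 in the B6 libraries they passed it through the FvB libraries, so their direction was fixed by the filter. Ifi203 had 0, 0.0652 and 0.0322 CPM in the 3 WT_B6 libraries and 274 and 251 CPM in the WT_FvB libraries. That is 3 counts against 11067, a ratio of pooled levels of 7160 (95% exact interval 2450 to 34700, counting error only). Mndal had no count in WT_B6 and 33.1 and 30.7 CPM in WT_FvB, at least 188-fold higher against a floor of 3 counts per library. Ifi202b had no count in any of the 7 B6 libraries and 20.3 and 19.4 CPM in WT_FvB, at least 118-fold higher. In Tg_FvB 1 to 6, Ifi203 stood at 26.8, 31, 41, 110, 55.2 and 2.11 CPM, so the transgenic libraries were above every B6 library and below both WT_FvB libraries. These genes are close copies of each other, and how the authors' counting split reads among them is not known.

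Guanylate-binding proteins, GTPases induced by interferon, also differed at both of their clusters. Gbp2b on chromosome 3 had no count in WT_B6 and 2.22 and 2.01 CPM in WT_FvB. Its neighbour Gbp3 had 6.11, 6.52 and 7.54 CPM in WT_B6 and 39.6 and 40.6 CPM in WT_FvB (log2 fold change 2.57, SE 0.43, adjusted p 0.000344), and Gbp2 next to it did not pass the test (4.42 to 5.08 against 5.27 and 5.7 CPM). On chromosome 5, Gbp9 had 0.0545, 0.228 and 0.258 CPM in WT_B6 and 11.2 and 10.2 CPM in WT_FvB (log2 fold change 5.74, SE 0.69, adjusted p 5.04e-05). Of 26 tested interferon-inducible genes in all, 9 were higher and 3 lower, a share close to the 48.9% called over all tested genes, and the canonical target Isg15 (0.451 to 0.763 against 0.345 and 0.365 CPM) was not called.

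The genes counted in WT_B6 only included a repeated stretch of chromosome 4 that holds copies of the chemokine gene Ccl21. Ccl21b (chr4:42173120-42256825) had 11.2, 8.8 and 7.76 CPM in WT_B6 and no count in WT_FvB, at least 52.6-fold lower. Gm21541, Gm13304 and Gm10591, annotated in the same stretch, also had no count in WT_FvB. None of these 4 had more than 0.0792 CPM in Tg_FvB 1 to 4. Copies in such repeats share reads, so the count of each entry is uncertain. AA388235 on chromosome 17 had 11.8, 10.7 and 11 CPM in WT_B6 and 0.148 and 0.0456 CPM in WT_FvB, and H2-T24, a class I-like gene of the major histocompatibility complex, had 4.09, 2.9 and 3.13 against 0.0985 and 0 CPM.

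Of 5 genes known beforehand to vary between strains, 2 were higher, 1 was lower and 2 were not called in the wild types. Nnt had 19.7, 19.1 and 20.2 CPM in WT_B6 and 86.4 and 88.8 in WT_FvB (log2 fold change 2.16, SE 0.15), which passed the test, and it also rose in Tg_FvB against KO_B6, by 1.43 on the log2 scale. Gabra2, a GABA-A receptor subunit, had 10.1, 9.39 and 11.1 CPM in WT_B6 and 3.4 and 4.01 in WT_FvB, a fold change of -1.46 on the log2 scale, with -1.26 in the mutant pair. Glo1, the glyoxalase gene, was not called in the wild types and rose in the mutant pair, at 125 to 126 against 116 and 117 CPM in the wild types and 117 to 121 CPM in KO_B6 against 152 to 258 CPM in Tg_FvB. In the major histocompatibility complex, 9 of 23 tested genes were higher and 7 lower, against 25.4% and 23.5% of all tested genes. H2-T10 had 0.982, 1.24 and 1.03 CPM in WT_B6 and 22 and 20.6 CPM in WT_FvB, while its near copy H2-T22 went the opposite way, at 17.1, 16.6 and 17.9 against 2.61 and 3.19 CPM. How the counting split reads between such copies is not known, and the mm10 assembly to which reads were assigned is of C57BL/6J.

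Some ribosomal protein genes stood far apart in the counts. Rps2 had 366, 335 and 367 CPM in WT_B6 and 17.3 and 17.7 CPM in WT_FvB (log2 fold change -4.35, SE 1.1, adjusted p 0.00472), with 371 to 411 CPM in KO_B6 and 14.2 to 23.5 CPM in Tg_FvB 1 to 4. Rpl29 had 201, 199 and 192 against 6.7 and 6.74 CPM, and Rpl30 had 75.5, 84.4 and 85.2 against 9.26 and 9.89 CPM. The 3 genes were separated in the same way, by background and with intermediate values in the library labelled Tg_FvB 5 (228, 121 and 53.2 CPM). Tg_FvB 6, at 47, 28.4 and 18.8 CPM, was also above Tg_FvB 1 to 4. Of 85 ribosomal protein genes tested, 8 were called and over 2-fold lower and 1 higher, and their median log2 fold change was -0.05. Among all tested genes 6.33% were called and over 2-fold lower and 8.2% higher. These genes have many near-identical processed copies in the genome, so their counts are uncertain. Entries annotated as pseudogenes took 1.26% to 1.3% of the counts in WT_B6 and 1.33% to 1.35% in WT_FvB. Rnf151, which ends 63 bases before Rps2 begins on chromosome 17, was counted in WT_FvB only, at 1.08 and 1.05 CPM.

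Tcfl5, a helix-loop-helix transcription factor best known from the testis, had 0.6, 0.489 and 0.805 CPM in WT_B6 and 86.1 and 83.2 CPM in WT_FvB. Its log2 fold change was 7.05 (SE 0.72, adjusted p 2e-05), and the mutant pair gave 6.09, with every one of the 8 FvB libraries (16.4 CPM or more) above every B6 library (0.805 CPM or less). Dclk3 and Ulbp1, a ligand of an activating natural killer receptor, had the same pattern at lower levels. Dclk3 had 0.0644 to 0.218 CPM in WT_B6 and 8.03 and 5.88 CPM in WT_FvB, and Ulbp1 had 0.164 to 0.226 CPM and 5.56 and 5.47 CPM. Erdr1, Cd38 (a NAD-consuming enzyme), Ptprn and Serpina3n were also among the 15 largest rises. Erdr1 lies at the end of the X chromosome (chrX:170010526-170018797) in a region that is hard to assemble, and it had 2.64 to 3.05 CPM in WT_B6, 238 and 261 in WT_FvB, 13.8 to 32.3 in KO_B6 and 101 to 404 in Tg_FvB.

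Among the largest falls, Cpne8, a calcium-dependent membrane-binding protein, had 30.1, 30.5 and 30.6 CPM in WT_B6 and 1.43 and 1.78 CPM in WT_FvB, with 62.1 to 66.3 CPM in KO_B6 and 1.89 to 2.26 CPM in Tg_FvB 1 to 4. Myo7a, an unconventional myosin, had 14.1, 11.6 and 12.3 against 0.689 and 0.228 CPM, and Rec8, a meiotic cohesin, 7.36, 7.92 and 6.41 against 0.246 and 0.365 CPM. In all 3 the mutant pair gave a fall that passed the test. Gabbr2, a subunit of the GABA-B receptor, fell from 28.8, 29.1 and 30.2 to 1.48 and 1.46 CPM between the wild types (log2 fold change -4.32, SE 0.71), but KO_B6 (5.87 to 9.84 CPM) and Tg_FvB (2.06 to 16.4 CPM) overlapped. The cardiac actin Actc1 was like it, at 26.1, 25.4 and 25 against 2.26 and 2.64 CPM in the wild types and 6.02 to 9.61 against 2.61 to 15.8 CPM in the mutants.

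The second pair of backgrounds puts these examples on the scale of the whole table. Tg_FvB against KO_B6 differs in background and in the labelled Kat6b genotype, and shares no library with the wild-type pair. It called 5512 genes (36.1%), of which 2740 (18%) were higher and 2772 (18.2%) lower in Tg_FvB. In the same direction in both pairs were 2204 genes (14.4% of tested genes), 29.6% of the wild-type calls and 40% of the mutant calls, and 826 (5.41%) were called in opposite directions. Without Tg_FvB 5 and 6 the pairs had 3298 calls in the same direction. Of the 2217 wild-type calls over 2-fold, 933 (42.1%) were called in the same direction in the mutants. A test of the difference between the pairs called 5695 genes (37.3%), so for many genes the wild-type difference was not of the size seen in the mutant pair. Every one of the 8 FvB libraries was above every one of the 7 B6 libraries for 665 genes and below for 649, which is 8.61% of tested genes; without Tg_FvB 5 and 6 the figures were 1373, 1513 and 18.9%. Kat6b itself, a histone acetyltransferase, had 85.1, 84.1 and 83.5 CPM in WT_B6, 54.4 and 51.9 CPM in WT_FvB, 61 to 66.1 in KO_B6 and 140 to 289 in Tg_FvB, and its paralogue Kat6a had 380 to 385 CPM in WT_B6 and 305 in both WT_FvB libraries. Kat6b in KO_B6 was below WT_B6 but above WT_FvB, so these counts over the whole gene do not check the knock-out label.

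Hypoxia-response genes were the gene list with the largest median difference. Of 20 tested members outside glycolysis, 17 were higher and 1 lower in WT_FvB, where 25.4% of all tested genes were higher and 23.5% lower. The median log2 fold change of the list was 2.47 against 0.02 over all tested genes. Vegfa, the vascular growth factor, had 72.4, 70.2 and 68.3 CPM in WT_B6 and 557 and 541 CPM in WT_FvB (log2 fold change 2.97, SE 0.55, adjusted p 0.000679). Ndrg1, a stress-induced gene, had 2.02, 2.12 and 2.35 against 94.2 and 93.1 CPM (log2 fold change 5.43, SE 0.79, adjusted p 0.000142). In these genes both WT_FvB libraries lay far above all WT_B6 libraries and the replicates almost coincided. Adm, which encodes the vasodilator adrenomedullin, had 3.6, 2.28 and 3.09 against 54.3 and 53 CPM, and Car12, a membrane carbonic anhydrase, had 0.654, 1.04 and 0.999 against 25.3 and 23.9 CPM. Car9, the related enzyme often used as a hypoxia marker, had 5 counts in all in WT_B6 and 156 in WT_FvB, a ratio of pooled levels of 60.5 (95% exact interval 25.4 to 189). Bnip3, a mitophagy receptor, had 25.1, 28.5 and 27.4 against 206 and 189 CPM. Egln1 and Egln3, the prolyl hydroxylases that mark hypoxia-inducible factors for degradation in oxygen, had log2 fold changes of 1.11 and 1.49. Mxi1, an antagonist of MYC, was the member that fell (125 to 126 against 76.7 and 74 CPM), and Bnip3l and Ddit4 did not pass the test.

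Of 19 tested glycolysis genes, 17 were higher in WT_FvB and none lower, with a median log2 fold change of 1.24. The shares over all tested genes were 25.4% higher and 23.5% lower. Slc2a1, the main glucose transporter, had 22, 21.2 and 21 CPM in WT_B6 and 107 and 111 CPM in WT_FvB. Slc16a3, a lactate exporter, had 5.29, 4.24 and 4.99 against 53.2 and 53.9 CPM, and Pfkp, a phosphofructokinase, 14.3, 13.3 and 12.6 against 132 in both libraries. Ldha, lactate dehydrogenase, had 323, 322 and 317 against 1030 and 1020 CPM (log2 fold change 1.67, SE 0.19, adjusted p 3.35e-05). Pdk1, the kinase that shuts pyruvate dehydrogenase, had 26.4, 29.2 and 30 against 171 and 170 CPM. Eno1 (181 and 195 CPM in WT_FvB, 215 to 237 in WT_B6) and Pfkm (159 and 161 against 148 to 155 CPM) did not pass the test. The nuclear genes of oxidative phosphorylation did not move with them: 25 of 26 had a shared level, with a median of -0.03, and the exception Cox5a rose from 187, 203 and 191 to 299 and 291 CPM.

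**Figure D3:**
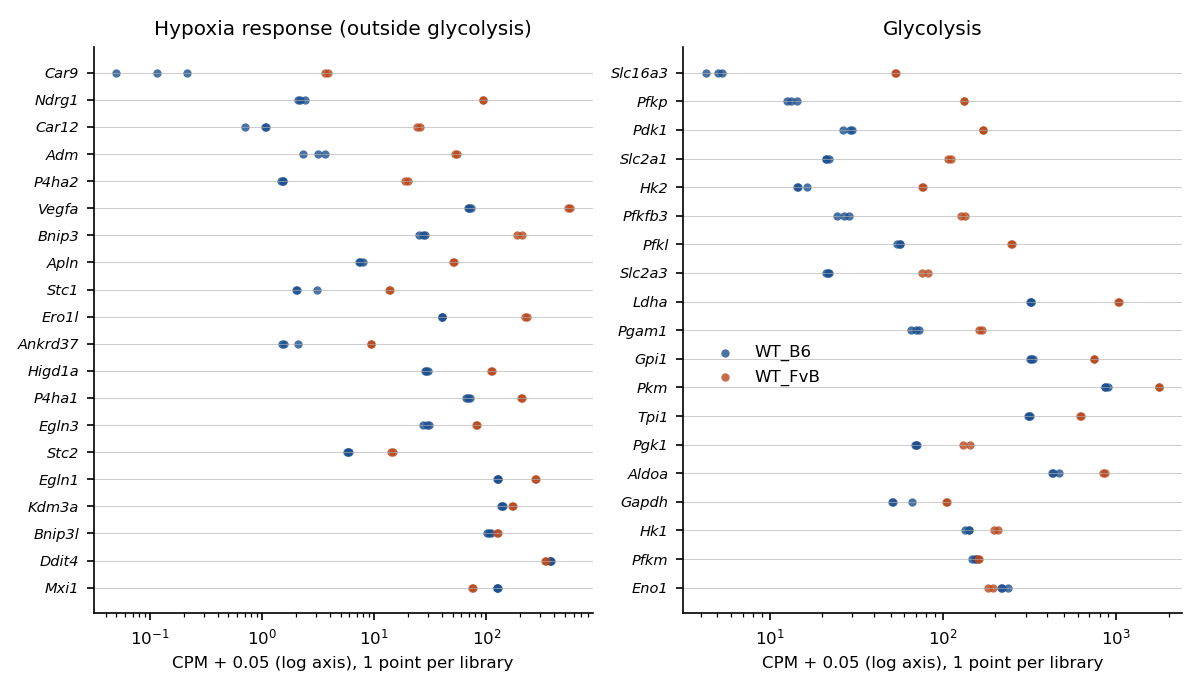
CPM plus 0.05 on a log axis for each tested gene of the hypoxia list (left) and the glycolysis list (right), 1 point per wild-type library. For 17 of 20 and 17 of 19 genes the orange WT_FvB points are called higher than the blue WT_B6 points.

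The level of these lists varied within the other groups too. The mean log2 CPM of the 20 hypoxia genes was 4.01 to 4.04 in WT_B6, 6.12 to 6.13 in WT_FvB, 4.33 to 5.11 in KO_B6 and 4.36 to 5.59 in Tg_FvB, so the mutant groups overlapped and lay between the wild types. In the mutant pair 4 of the 20 genes were higher and 1 lower, with a median of 0.12, and for glycolysis 4 were higher and 1 lower, with a median of 0.24. The shares over all tested genes in that pair were 18% higher and 18.2% lower. With near-identical libraries summed, no member of the hypoxia, glycolysis or replication lists passed edgeR's test between the wild types, and their medians were 2.44, 1.2 and 0.58. Vegfa had 324, 219, 218 and 76.5 CPM in the 4 KO_B6 libraries and 154, 166, 188, 392, 248 and 66.7 CPM in the 6 Tg_FvB libraries, a spread within each group that the wild-type replicates did not show.

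Upstream sequences of members of the hypoxia list are shown because ACGTG is a core sequence that hypoxia-inducible factors bind. Other forms of the core, such as GCGTG, were not searched. RefSeq (GRCm38.p6) gave promoters for 16 of the 20 members. The core was present, on either strand, within 250 bases before at least 1 annotated start in 10 of these 16 genes (62.5%), in 10 of 18 glycolysis genes (55.6%) and in 2788 of 11406 tested genes with a promoter (24.4%). Some of these matches are the E-box CACGTG, which contains the core on both strands and was found in 9.63% of tested genes, 6.25% of the hypoxia genes and 16.7% of the glycolysis genes. The 4 sequences below belong to the called members with 1 annotated start and a match that had the largest rises, each running 5′ to 3′ toward the start, with every ACGTG or its complement CACGT in capitals.
Car9 (chr4:43506776-43507025, plus strand): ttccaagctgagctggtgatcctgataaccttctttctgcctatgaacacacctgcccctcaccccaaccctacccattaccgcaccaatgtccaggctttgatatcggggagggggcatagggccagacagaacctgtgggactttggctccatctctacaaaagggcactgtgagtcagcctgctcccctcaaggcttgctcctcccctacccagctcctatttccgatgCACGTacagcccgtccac
P4ha2 (chr11:54100674-54100923, plus strand): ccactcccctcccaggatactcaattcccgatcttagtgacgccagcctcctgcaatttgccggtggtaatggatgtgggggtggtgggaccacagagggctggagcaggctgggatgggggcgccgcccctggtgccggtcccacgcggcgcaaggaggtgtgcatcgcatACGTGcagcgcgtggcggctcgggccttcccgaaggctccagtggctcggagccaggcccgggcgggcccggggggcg
Bnip3 (chr7:138909507-138909756, minus strand): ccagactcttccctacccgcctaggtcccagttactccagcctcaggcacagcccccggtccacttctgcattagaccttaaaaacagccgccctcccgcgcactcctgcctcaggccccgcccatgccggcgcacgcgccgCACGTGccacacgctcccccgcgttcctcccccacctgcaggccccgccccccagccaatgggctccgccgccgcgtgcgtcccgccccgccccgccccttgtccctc
Ankrd37 (chr8:45999851-46000100, minus strand): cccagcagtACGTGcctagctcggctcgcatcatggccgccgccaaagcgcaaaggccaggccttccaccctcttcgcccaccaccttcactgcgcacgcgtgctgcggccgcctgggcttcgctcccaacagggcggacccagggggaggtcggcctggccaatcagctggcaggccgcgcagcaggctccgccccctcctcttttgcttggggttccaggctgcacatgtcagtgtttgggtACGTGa
The match began 18 bases before the start in Car9 and 78 bases before it in P4ha2, a collagen prolyl hydroxylase. In Bnip3 the capitals are an E-box, 108 bases before the start, and Ankrd37, a small ankyrin-repeat gene, had matches 241 and 6 bases before the start. P4ha2 had 1.47, 1.47 and 1.42 CPM in WT_B6 and 18.6 and 19.8 in WT_FvB, and Ankrd37 had 1.53, 2.05 and 1.45 against 9.26 and 9.34 CPM. Car12, Adm, Apln, Higd1a and Stc2 rose as well and had no ACGTG or CACGT in this window. Kdm3a had none at any of its 3 annotated starts. Without a search for other forms of the core, these promoters cannot be said to lack it. Mxi1, the member that fell, is among the 10 genes with a match. Its matches lay 66 bases before 1 annotated start and 25 bases before another. The letters are those of the C57BL/6J assembly, and the sequence of the FvB/BalbC embryos was not analysed here.

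Most growth-factor response genes were higher in WT_FvB. Of 16 feedback regulators and ETV-family targets of ERK signalling, 12 were higher and 1 lower, with a median log2 fold change of 0.66. Among all tested genes 25.4% were higher and 23.5% lower. Dusp6, a phosphatase that inactivates ERK, had 37.7, 32.7 and 37.3 CPM in WT_B6 and 146 and 145 CPM in WT_FvB (log2 fold change 2.02, SE 0.19, adjusted p 9.42e-06), and Spry4, an inhibitor of receptor tyrosine kinases, had 53, 50.3 and 51.7 against 101 and 106 CPM. Il17rd, another inhibitor of FGF signalling, fell from 46, 39.8 and 43.5 to 16.3 and 17.8 CPM. In KO_B6 the mean was 185 CPM for Dusp6 and 211 for Spry4, above both wild types, and in the mutant pair 8 members were lower in Tg_FvB and none higher. For the 19 tested immediate early genes the count was 11 higher against 1 lower, with a median of 1.09. Egr1 had 66.5, 59.3 and 61.2 against 266 and 253 CPM, Arc 2.4, 2.22 and 2.38 against 26.9 and 25.5, and Fosl2 6, 6.88 and 6.83 against 55.4 and 53.3. Jund was the member that fell, from 215 to 252 CPM in WT_B6 to 108 and 111 CPM.

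Genes of DNA replication and the G1/S step formed the most uniform list. Of 32 members, 30 were higher in WT_FvB and none lower, with a median of 0.6. Among all tested genes 25.4% were higher and 23.5% lower. Ccne1, cyclin E1, had 18.1, 20.6 and 17 against 51.4 and 49.9 CPM (log2 fold change 1.45, SE 0.17, adjusted p 5.04e-05), E2f1 16.4, 16.5 and 15.4 against 32.4 and 35, and the replication clamp Pcna 202, 220 and 202 against 346 and 348 CPM. The differences were small in size but outside the spread of these nearly alike replicates. The wild-type groups did not overlap for 78.3% of all tested genes, so this by itself says little about the list. Of 31 mitotic genes, 19 were higher and 1 lower with a median of 0.34, and 16 had a shared level. Mki67, the proliferation antigen, had 530, 560 and 558 against 709 and 715 CPM and did not pass the test. The mean log2 CPM of the replication list was 5.91 to 5.95 in WT_B6, 6.56 in both WT_FvB libraries, 6.5 to 6.72 in KO_B6 and 6.12 to 6.62 in Tg_FvB. WT_B6 was the lowest group, and in the mutant pair 16 members were lower in Tg_FvB and none higher.

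More progenitor and Notch genes were lower than higher in WT_FvB. Of 27 stem and radial glia genes, 3 were higher and 14 lower, with a median of -0.35. For this and the next 2 lists, the shares over all tested genes were 25.4% higher and 23.5% lower. Hes5, a main effector of Notch signalling, had 319, 286 and 293 CPM in WT_B6 and 53.9 and 60.9 CPM in WT_FvB (log2 fold change -2.38, SE 0.44, adjusted p 0.00065), and Sox2, the stem-cell factor, had 714, 683 and 686 against 447 and 405 CPM. Hes1, the other main Notch effector, rose from 33.9, 31.8 and 34.3 to 57.2 and 55.6 CPM. Of 25 Notch pathway genes 3 were higher and 13 lower, with a median of -0.63. The ligands Dll3 (160, 144 and 143 against 28.6 in both libraries) and Dll1 (197, 192 and 191 against 94.3 and 92.5 CPM) fell and the ligand Jag1 (18.9, 16.6 and 19.5 against 33.2 and 34.6 CPM) rose. The receptors Notch1 and Notch3 had log2 fold changes of -0.78 and -0.63. Of 13 SOX genes 11 were lower and 2 higher, with a median of -0.78. Sox4 had 1030, 887 and 929 against 314 and 333 CPM, while Sox11, its close relative, rose from 163, 153 and 151 to 241 and 248 CPM, and Sox13 rose as well. In the mutant pair the SOX list had 2 higher and 2 lower with a median of 0.02, and 3 members moved the same way in both pairs, 7 without Tg_FvB 5 and 6. WT_B6 was the highest group for the stem and Notch lists. The mean log2 CPM of the stem list was 7.5 to 7.58 in WT_B6 and 7.13 to 7.15 in WT_FvB. It was 7.16 to 7.26 in KO_B6 and 7.08 to 7.39 in Tg_FvB. All KO_B6 libraries lay below all WT_B6 libraries for 15 of 27 stem, 16 of 25 Notch and 9 of 13 SOX genes. They lay above all WT_B6 libraries for 5, 5 and 2. The share of all tested genes separated in this way was not counted, and the WT_B6 replicates nearly coincide. These counts therefore do not set the lists apart from other genes.

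Of 14 tested dorsal telencephalic transcription factors, 7 were lower in WT_FvB and none higher, among them Nr2f2 (15.5, 13.7 and 14.4 against 4.63 and 3.92 CPM), Nr2f1, Tcf4, Emx2 and Dmrta1. The share called is close to the 48.9% called over all tested genes, where 23.5% were lower and 25.4% higher. Of 16 neuronal genes, 8 were lower and 2 higher in WT_FvB, with a median of -0.61. Dcx, a protein of migrating neurons, had 36.9, 38.4 and 40.3 CPM in WT_B6 and 11.9 in both WT_FvB libraries, and Tubb3 had 26.3, 25 and 24.1 against 5.37 and 5.83 CPM. Map2, at 1060 to 1070 against 1000 and 954 CPM, had a shared level. Dcx was the reverse in the mutant pair, with a mean of 13.9 CPM in KO_B6 and 28.3 in Tg_FvB.

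Genes of the oligodendrocyte lineage moved both ways. Of 19 members 12 were lower and 4 higher in WT_FvB, with a median of -0.84. Among all tested genes 23.5% were lower and 25.4% higher. The members that fell included genes of precursors. Gpr17, a receptor of committed precursors, had 425, 412 and 411 CPM in WT_B6 and 74.3 and 74.5 in WT_FvB (log2 fold change -2.48, SE 0.36, adjusted p 0.000146), Sox10 had 73.3, 65.2 and 62.9 against 17 and 17.7, and Cspg4 had 160, 146 and 148 against 59.5 and 66 CPM. The 4 that rose encode proteins of the myelin sheath. Mag had 0.763, 0.652 and 0.483 against 22.5 and 23.5 CPM (log2 fold change 5.21, SE 0.4, adjusted p 1.57e-06), Mobp 0.109, 0.0978 and 0.193 against 5.07 and 6.33, Mbp 60.2, 60 and 58.3 against 211 and 215, and Mog stayed below 1 CPM in all 5 libraries. Cnp, another myelin gene, fell from 407, 390 and 393 to 222 and 221 CPM, and Myrf, the transcription factor of myelination, fell from 34.7 to 35.4 CPM to 15.2 and 16.5 CPM. In the mutant pair the list went the other way on balance, with 9 members higher and 5 lower in Tg_FvB and a median of 0.46. Mag, Mobp, Mbp and Mog rose there too, with log2 fold changes of 3.85, 4.56, 2.53 and 1.27, whereas Gpr17 and Sox10 did not pass the test there. Mag was higher in each of the 8 FvB libraries (6.8 CPM or more) than in each of the 7 B6 libraries (1.57 CPM or less).

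**Figure D4:**
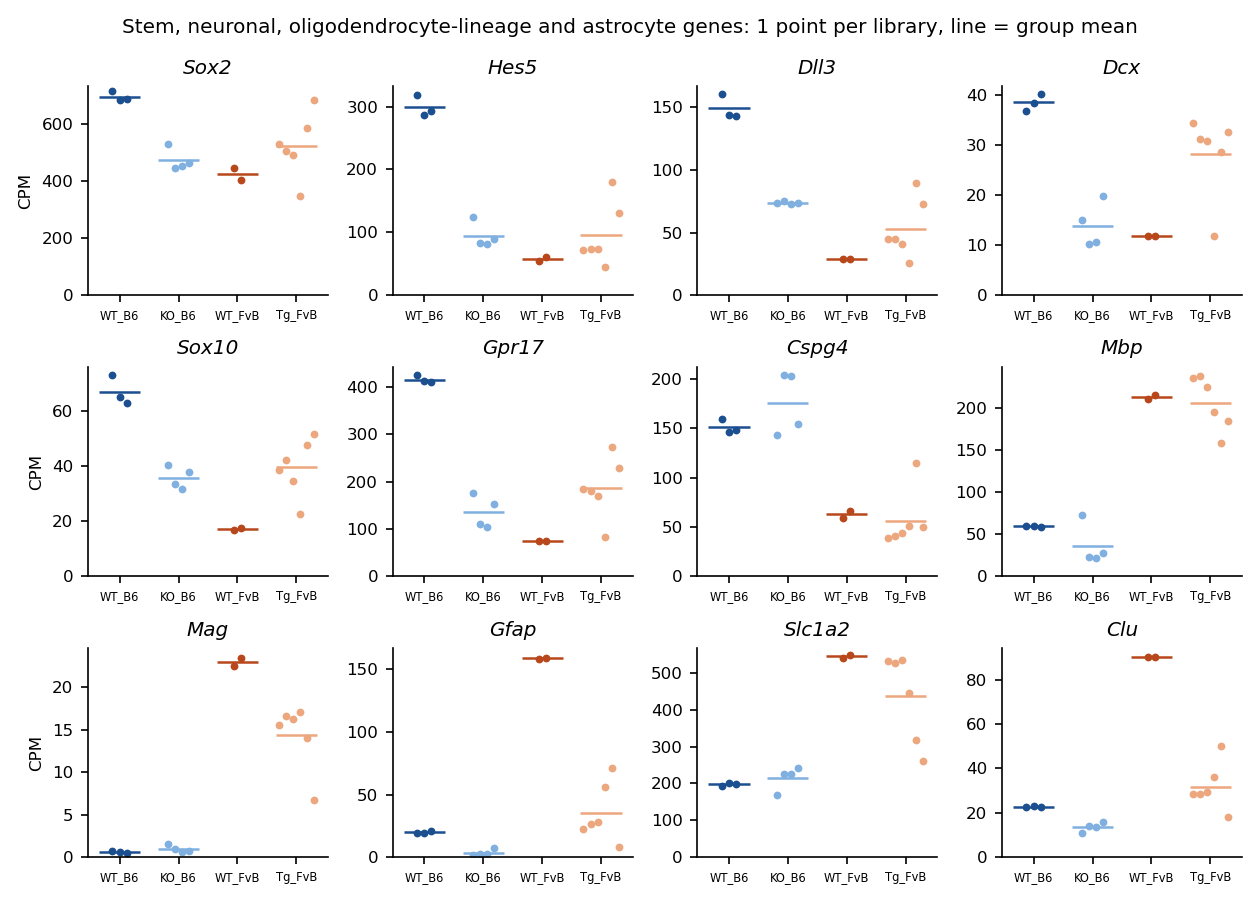
CPM of 12 stem, neuronal, oligodendrocyte-lineage and astrocyte genes in the 15 libraries, 1 point per library with a line at the group mean; every y axis starts at 0. Mbp and Mag are high in both FvB groups, whereas Hes5, Dll3 and Gpr17 are highest in WT_B6 and the 2 mutant groups overlap.

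Most astrocyte genes were higher in the FvB group of each pair, but the levels differed between the pairs. Of 20 members 13 were higher and 3 lower between the wild types (median 0.61), 14 were higher and 1 lower between the mutants (median 0.69), and 12 had the same direction in both, 13 without Tg_FvB 5 and 6. The shares over all tested genes were 25.4% higher and 23.5% lower between the wild types. They were 18% and 18.2% between the mutants, and 14.4% in the same direction in both. The mean log2 CPM of the list was 6.77 to 6.78 in WT_B6, 7.44 in both WT_FvB libraries, 6.08 to 6.19 in KO_B6 and 6.74 to 7.12 in Tg_FvB. By these means the mutant pair differed with KO_B6 low and Tg_FvB near WT_B6. All KO_B6 libraries lay below all WT_B6 libraries for 14 of the 20 genes and above them for 1. The share of all tested genes separated in this way was not counted. Gfap, the astrocyte filament, had 19.7, 19.2 and 21.1 CPM in WT_B6 and 158 and 159 CPM in WT_FvB (log2 fold change 2.98, SE 0.63, adjusted p 0.00153), and it ranged from 1.81 to 7.15 in KO_B6 and from 7.87 to 71.1 in Tg_FvB. Slc1a2, a glutamate transporter, had 193, 201 and 198 against 540 and 548 CPM, and Clu, a secreted chaperone, 22.6, 23.3 and 22.5 against 90.1 and 90.3. The gap-junction gene Gja1 had 205, 204 and 201 against 319 and 316, and the water channel Aqp4 had 91.6, 95.3 and 103 against 167 and 161 CPM. Sparcl1 had 44.9, 44.9 and 46.1 against 314 and 311 CPM, and means of 94.9 CPM in KO_B6 and 65.8 in Tg_FvB. Id3, Glul and Fgfr3 were the members that fell.

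Matrix genes were mixed, with 15 of 32 collagens, laminins, integrins and related genes higher and 3 lower (median 0.54). Over all tested genes 25.4% were higher and 23.5% lower. Fn1, fibronectin, had 12.7, 14.5 and 13.9 CPM in WT_B6 and 272 and 262 CPM in WT_FvB (log2 fold change 4.28, SE 0.67, adjusted p 0.000232), Col18a1 had 6.38, 4.99 and 5.83 against 45.6 and 44.8, and the laminin receptor subunit Itga6 fell from 300, 308 and 311 to 160 and 151 CPM. The summed mural and fibroblast markers given above were also higher in WT_FvB, and their part in the result was not tested. Clock genes included 9 of 18 higher and 3 lower, among them Per2 (15.9, 14.5 and 13.5 against 37.1 and 39.6 CPM) and Bhlhe40 (76.6, 71.5 and 76.8 against 187 and 192 CPM), a repressor that hypoxia also induces. Hmga2, a chromatin protein of fetal stem cells, rose from 4.64, 5.08 and 5.09 to 18.4 and 18.9 CPM. Of 13 tested fetal timing genes, however, 1 was higher and 4 were lower, with a median log2 fold change of -0.3. Of 23 cholesterol-synthesis genes 8 were called higher and 2 lower, a share close to that over all tested genes. A shared level held for 17 of the 23, so some genes with a shared level were also called. Of 39 clustered protocadherins, which give neurons their surface identity, 14 were lower and 5 higher between the wild types, and 4 were lower and 15 higher between the mutants. The share called between the wild types is close to the 48.9% called over all tested genes and is not a result about this family.

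**Figure D5:**
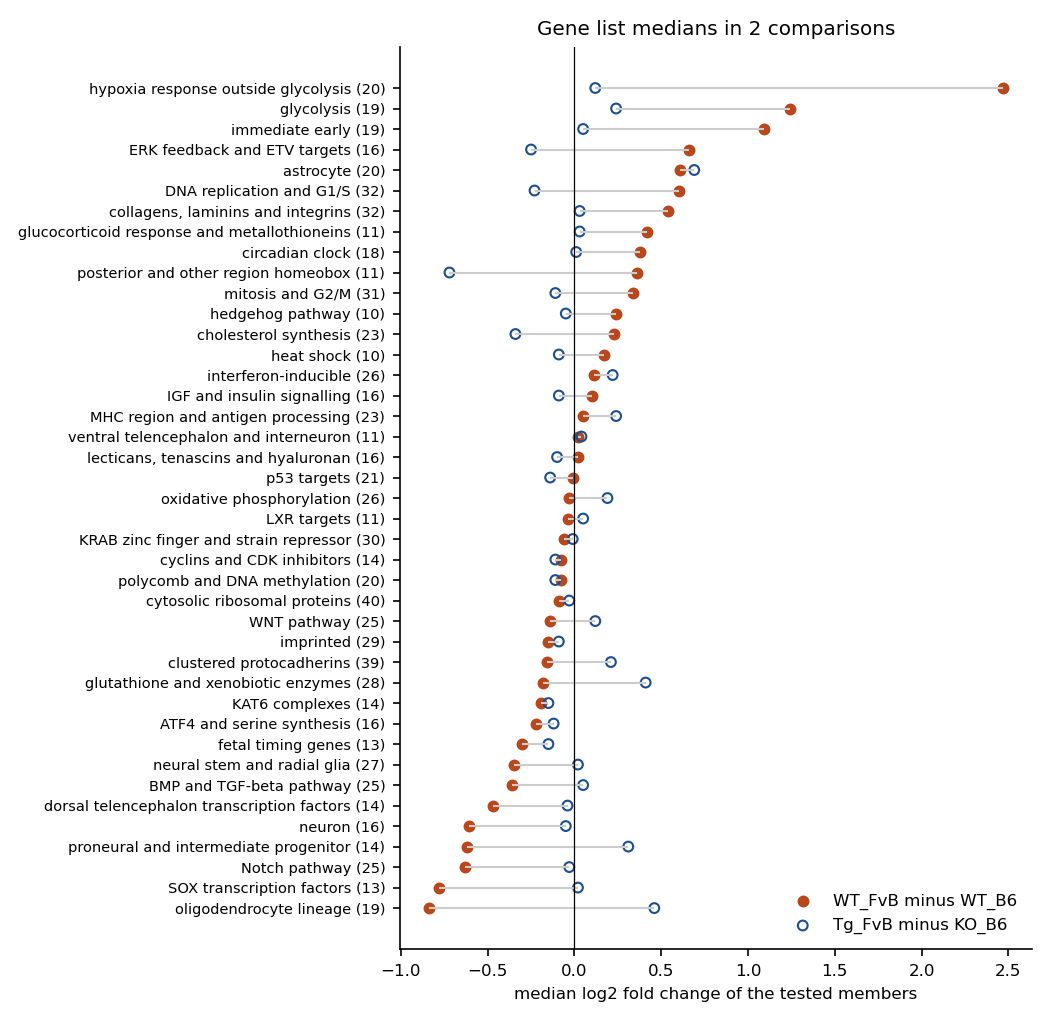
Median log2 fold change of the tested members of each gene list with at least 10 tested genes, for WT_FvB minus WT_B6 (filled) and Tg_FvB minus KO_B6 (open), 2 comparisons with no library in common. The hypoxia, glycolysis and replication medians are 2.47, 1.24 and 0.6 in the wild types and 0.12, 0.24 and -0.23 in the mutants, whereas the astrocyte medians are 0.61 and 0.69.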

How the data were processed

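The deposited values are whole-number counts per gene from RNA-seq, with gene lengths, in 1 table per library. The submitters' processing notes name bcl2fastq, featureCounts and mm10, with no versions; neither the aligner nor the strand setting was given in the labels. Rows with no gene symbol (917 entries, 0.483% to 0.504% of wild-type counts) were left out, which kept 26263 named genes. Genes were filtered with edgeR's filterByExpr (minimum count 10), which removed 11002 and left 15261. The test was edgeR 4.0.16's quasi-likelihood F-test (R 4.3.3, TMM scaling, 1 coefficient per group over all 15 libraries) with Benjamini-Hochberg adjustment over all tested genes at 0.05. CPM used the TMM-scaled totals; TPM was computed from the deposited lengths. The script was tested on simulated data. DESeq2 1.42.0 was an alternative.

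Named genes were the 15 largest rises and falls (at least 5 CPM in the higher group, no overlap, no provisional symbol), the one-sided genes (up to 15 named by level), the 15 highest by TPM, the 10 highest with a shared level, Kat6b and Kat6a, and members of 52 gene lists, with up to 4 called members a list first. Ifi211, outside this rule, was chosen after its values were seen. The comparison and the lists were chosen with earlier results of these data known. Promoters and their sequences are RefSeq's for GRCm38.p6. Some list members are not reported here by name.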

Additional observations from a re-analysis of the deposited data

Results flagged for a closer look

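In the 6 libraries labelled Tg_FvB, the median level of the 18 genes counted in WT_B6 only had 1 library far from the rest, replicate 5, at 58.6% of the WT_B6 mean, where the others lay between 0.0829% and 11.9%. The limit for such a gap is one that chance passes in about 1 in 20 groups of this size.

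For 11 of the genes with the largest changes, the test of the difference between the wild-type pair and the mutant pair passed the threshold (edgeR's quasi-likelihood test, adjusted over all genes). The mutant log2 fold change minus the wild-type one was -3.14 for Erdr1 (adjusted p 0.0022), -3.55 for Gbp9 (0.0047), -4.9 for Ndrg1 (0.00114), -1.36 for Mag (0.0427), -3.08 for Serpina3n (0.0121) and -3.87 for Car12 (0.00216). For genes lower in WT_FvB it was 5.32 for Bfsp2 (adjusted p 0.0159), 4.25 for Gabbr2 (0.00127), 2.08 for Cacna2d2 (0.0437), 2.5 for Synpo2l (0.0251) and 3.35 for Actc1 (0.00136). In each of the 11 the wild-type difference was the larger in size. These genes were chosen for the largest wild-type differences, so a smaller mutant difference was favoured in advance. The mutant pair also differs in the labelled Kat6b genotype. With near-identical libraries summed, 0 genes passed this test in edgeR, with 2803 at an unadjusted p under 0.05.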

How the results depend on the processing

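Whether near-identical libraries count as replicates set the number of calls. Summed, they gave 0 wild-type calls in edgeR, 1208 in the mutant pair, 0 in the same direction in both, 0 for the difference between pairs and 2762 genes with a shared level. DESeq2 on the summed libraries, chosen after seeing the data, gave 1192, 2362, 402 and 2910 for wild-type, mutant, same-direction and shared counts. Litter as a covariate gave 3903 wild-type calls, 117 in the mutant pair, 78 in both and 2862 for the difference. Shared levels numbered 9882 inside 2-fold and 2196 inside a ratio of 5 to 4. Leaving out 1 WT_B6, WT_FvB or KO_B6 library at a time gave 5055 to 7697 wild-type calls, 4371 to 5340 mutant calls, 1548 to 2093 in both, 5074 to 6355 shared levels and 3598 to 6042 calls of the difference, the lowest without WT_FvB replicate 1 (3598) or 2 (3656); the groups then left with 1 library were assumed to vary like the others. Deviations of same-numbered wild-type libraries correlated at -0.0384 and 0.000195. The deviations of the 2 WT_FvB libraries mirror each other and the replicates are nearly alike. These values therefore cannot decide whether the numbers pair the libraries. With the replicate number as a block the wild-type calls were 8076 and those in both pairs 3112. Other size factors, DESeq2 on separate libraries, no filter and a fit without Tg_FvB 5 and 6 moved none of these 5 counts over all genes by over 1.5 times. Without Tg_FvB 5 and 6, members called the same way in both pairs went from 3 to 7 in the SOX list and from 4 to 9 in the Notch list. None of the 215 named genes reversed under any alternative, but the alternatives reuse the same counts. With litter as a covariate, 47 lost their call. The difference between pairs was not run in DESeq2 or in fits of 1 pair alone.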

Other observations

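Several signalling lists not described above held large single differences between the wild types, and none was uniform. In the WNT pathway, 4 of 25 tested genes were higher and 9 lower in WT_FvB, a share close to the 48.9% called over all genes. Nkd1, a feedback inhibitor of WNT signalling, had 80.3, 72.8 and 72 CPM in WT_B6 and 8.42 and 9.43 in WT_FvB (log2 fold change -3.07, SE 0.5, adjusted p 0.000274 in edgeR's test). In the hedgehog pathway, the ligand gene Dhh rose from 4.14, 3.16 and 4.32 to 22.1 and 22.3 CPM while Ptch1, its receptor and transcriptional target, fell from 184, 169 and 176 to 82.1 and 80.4 CPM. Dhh had means of 22 CPM in KO_B6 and 21.5 in Tg_FvB.

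Slc7a11, the cystine transporter, had 58.7, 61.7 and 62.8 CPM in WT_B6 and 152 and 154 in WT_FvB (log2 fold change 1.32, SE 0.14), and the mutant pair gave the same log2 fold change of 1.32. Gsta4, a glutathione transferase, also rose in both, by 1.33 and 1.48. Grb10, an imprinted adaptor of insulin signalling, fell by 2.13 and by 1.37 on the log2 scale. The KRAB zinc finger gene Zfp457 had 0.0978 to 0.218 CPM in WT_B6 and 3 and 2.23 in WT_FvB, with log2 fold changes of 3.97 and 3.72 in the wild-type and mutant pairs. Their lists did not rise as a whole between the wild types. Of 28 glutathione and xenobiotic enzyme genes 7 were higher and 9 lower. Of 16 ATF4 and serine synthesis genes 3 were higher and 6 lower. Of 30 KRAB zinc finger and strain repressor genes 4 were higher and 10 lower. Among all tested genes 25.4% were higher and 23.5% lower. In the mutant pair 16 of the 28 enzyme genes were higher and 1 lower.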
